A study of Homo sapiens with 9 samples.

Results

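CEBPA, CEBPB and CEBPD encode CCAAT/enhancer-binding proteins, and GADD45B and GADD45G encode growth arrest and DNA damage-inducible proteins. These 5 genes were found by symbol among 46846 features of the deposited expression table, and all 5 had the mean value of at least 10 required for testing. They were chosen by name with their measured differences between the drug-treated and the DMSO cells already known, so their own differences are given here as descriptions, with no test. The cells were MDA-MB-231, a line from a human breast cancer without hormone receptors or HER2 amplification, and the polyadenylated RNA of this single line was sequenced in 9 libraries. Pladienolide B (10 nM, 6 h), indisulam (3.3 µM, 12 h) and DMSO, the solvent control labelled 12 h, were each represented by 3 libraries. Pladienolide B binds the SF3b complex, which recognises the branch site of introns, and indisulam brings the splicing factor RBM39 to a ubiquitin ligase for degradation. Drug, dose and time differ together between the drugs, and the time of pladienolide B differs from that of DMSO, so these cannot be told apart.

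C/EBP proteins are basic leucine zipper (bZIP) transcription factors that bind DNA as pairs, with one another or with other bZIP proteins, and act in differentiation, inflammation and the acute phase response. CEBPB and CEBPD are fast-responding genes downstream of IL-6 and stress signals, whereas CEBPA restrains the cell cycle in differentiated cells such as hepatocytes, adipocytes and myeloid cells. GADD45 proteins are small acidic proteins with no known enzyme activity of their own. They bind the kinase MAP3K4 and through it can switch on the p38 and JNK routes. They also bind PCNA and CDK1 and take part in DNA repair and DNA demethylation.

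The libraries held between 59312100 and 83910831 reads, recovered from the deposited values, and a count of 3 reads was worth 2.48 to 3.87 normalised counts. Summed over all features, the normalised counts of pladienolide B libraries were 1.39 times those of DMSO libraries, and those of indisulam libraries 1.04 times. In the comparison of pladienolide B with DMSO, 34.3% of the 16846 genes tested were called higher and 35.5% lower at an adjusted p under 0.05 (limma, Benjamini-Hochberg). For indisulam against DMSO these shares were 14.5% and 12.4%, and for pladienolide B against indisulam 34.7% and 35.6%. The markers of the labelled cells were present: 9 of 11 breast cell identity markers had a mean of at least 10, and the summed level was 378444 to 430453 normalised counts with pladienolide B, 270660.0 to 280687 with indisulam and 275526 to 289283 with DMSO. ESR1 and PGR, the others, reached at most 2.04 in any library. Of the 9, 7 were called higher and 1 lower with pladienolide B than with DMSO. EGFR averaged 5467, 9254 and 10487 in the same order of groups, against the direction of the sum. The summed level of 10 leukocyte markers was 329 to 467, 182 to 237 and 336 to 367 in the same order, with ELANE, MPO and CSF3R at 0 in every library. Of these 10, 5 had a mean of at least 10. CSF1R was highest, averaging 254, 129 and 269, and CD14 averaged 81.8, 45.0 and 44.1. The summed level of 7 adipocyte and liver markers was 15.2 to 34.1, 16.2 to 28.4 and 28.5 to 46.9, with ADIPOQ, FABP4, LEP and TTR at 0. Of these 7, 2 had a mean of at least 10: PLIN1, averaging 10.8, 3.31 and 26.1, and APOA1, averaging 12.5, 18.6 and 13.4. The part of these markers in the results was not tested.

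Sequence upstream of the start is shown for the genes with a RefSeq promoter entry, since the 5 genes differ in how their levels moved and their start regions can be compared directly. The RefSeq promoter table used here (GRCh38.p14) matched 4 of the 5, and CEBPD is named only. Each stretch is written 5′ to 3′ on the strand of the gene, and capitals mark the motifs named after the sequences. GADD45B is at chr19:2475877-2476121 (plus strand), GADD45G at chr9:89604762-89605011 (plus strand), CEBPB at chr20:50190333-50190582 (plus strand) and CEBPA at chr19:33302565-33302784 (minus strand).
GADD45B: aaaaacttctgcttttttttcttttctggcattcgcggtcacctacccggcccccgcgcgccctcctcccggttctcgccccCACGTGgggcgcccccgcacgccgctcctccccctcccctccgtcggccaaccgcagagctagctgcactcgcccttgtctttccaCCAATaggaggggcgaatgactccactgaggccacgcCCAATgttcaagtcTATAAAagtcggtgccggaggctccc
GADD45G: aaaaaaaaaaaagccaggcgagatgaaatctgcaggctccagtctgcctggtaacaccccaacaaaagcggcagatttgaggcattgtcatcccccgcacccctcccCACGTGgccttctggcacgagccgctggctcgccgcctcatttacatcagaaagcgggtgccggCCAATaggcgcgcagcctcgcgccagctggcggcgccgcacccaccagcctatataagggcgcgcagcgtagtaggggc
CEBPB: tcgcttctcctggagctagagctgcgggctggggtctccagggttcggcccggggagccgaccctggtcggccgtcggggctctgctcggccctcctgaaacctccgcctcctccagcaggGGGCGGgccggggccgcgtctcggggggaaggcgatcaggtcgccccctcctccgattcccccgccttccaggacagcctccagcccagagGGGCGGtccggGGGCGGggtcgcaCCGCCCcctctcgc
CEBPA: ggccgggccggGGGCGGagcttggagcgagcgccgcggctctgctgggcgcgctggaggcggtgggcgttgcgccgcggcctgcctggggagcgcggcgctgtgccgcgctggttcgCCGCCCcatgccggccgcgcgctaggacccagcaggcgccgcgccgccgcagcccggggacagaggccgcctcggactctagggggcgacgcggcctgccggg

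Motifs were searched on both strands of the window from 250 bases before to 50 bases after each start: the TATA box letters TATAAA, the CCAAT box, the E-box letters CACGTG, the GC box letters GGGCGG, the AP-1 motif TGACTCA, the cyclic AMP response motif TGACGTCA and the C/EBP core motif TTGCNNAA. No motif holds the letters of another. The GADD45B and GADD45G windows both held CACGTG, 168 and 143 bases upstream of their starts, and this motif was found in 7.26% of all 35116 windows. Both also held CCAAT, 82 and 45 bases upstream in GADD45B and 79 bases upstream in GADD45G, and CEBPB held it starting at base 3 after the start, against 34.6% of all windows. GADD45B held TATAAA 31 bases upstream and CEBPA 30 bases upstream, a motif of 11.5% of all windows. The CEBPA match lies past the end of the stretch printed for it, which stops where a GENCODE 29 exon begins. The CEBPB window held GGGCGG 129, 38, 27 and 14 bases upstream and at bases 12 and 20 after the start, and CEBPA held it 239 and 133 bases upstream, while 44.95% of all windows held it. TTGCNNAA was found only in the GADD45B window, inside the 50 bases after the start, and in 10.5% of all windows. None of the 4 windows held the AP-1 or the cyclic AMP response motif, which 4.95% and 1.85% of all windows held. The table has a further CEBPB entry that starts downstream, whose window held TATAAA 29 bases upstream. The G and C share was 80.7% for CEBPA, 77.0% for CEBPB, 61.7% for GADD45B and 62.7% for GADD45G, against a median of 58.7% over all windows. A match is a run of letters and not a site shown to be bound.

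CEBPB, the C/EBP protein best known for inflammatory and stress responses, is feature GSHG0026918 (hg38 chr20:50190583-50192690) and has a single exon in GENCODE 29. It had 5185, 6687 and 6087 normalised counts in the 3 pladienolide B libraries, 3362.5, 3438 and 3694 in the 3 indisulam libraries and 3345, 3349.55 and 3228 in the 3 DMSO libraries. Every pladienolide B value lay above every value of the other two groups, and the indisulam values lay just above those of DMSO. The mean was 5987 ± 756 with pladienolide B, 3498 ± 174 with indisulam and 3308 ± 69.0 with DMSO (SD, n = 3 each). This is a ratio of means of 1.81 for pladienolide B over DMSO, or a log2 difference of 0.85 ± 0.08 (SE of the fit), and of 1.06 for indisulam over DMSO, a log2 difference of 0.08 ± 0.08. In bulk RNA, a change in the share of cells that express a gene and a change in its RNA per cell cannot be told apart. An antisense feature, CEBPB-AS1, lies across CEBPB and averaged 119 ± 20.5, 72.5 ± 26.9 and 100.5 ± 12.9 in the same order of groups, and the strand setting of the counting is not given in the sources used here.

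CEBPD, a C/EBP gene that responds quickly to cytokines and is low in most resting cells, is feature GSHG0042346 (hg38 chr8:47736909-47738416), also with a single exon. Its values were 3348, 4478 and 3128 with pladienolide B, 906, 943 and 930.0 with indisulam and 737, 723 and 659 with DMSO. The 3 groups did not overlap, and the pladienolide B libraries spread most, with replicate 2 well above the other two (coefficient of variation 19.8%). CEBPD averaged 3651 ± 724 in pladienolide B libraries, 926 ± 18.8 in indisulam libraries and 706 ± 41.5 in DMSO libraries. The ratio of means was 5.17 for pladienolide B over DMSO (log2 difference 2.35 ± 0.11) and 1.31 for indisulam over DMSO (log2 difference 0.39 ± 0.11). SPIDR, a DNA repair gene, spans the position of CEBPD and averaged 1584 ± 60.6 with pladienolide B, 1037 ± 78.8 with indisulam and 1169.5 ± 62.6 with DMSO. Without the strand setting, reads in the shared stretch cannot be assigned to either gene with certainty.

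CEBPA, the C/EBP gene of differentiated cells, is feature GSHG0022718 (hg38 chr19:33299934-33302564), again with a single exon, and was near the lower limit of what these libraries measure. It had 12.0, 7.74 and 10.1 normalised counts with pladienolide B, 32.1, 38.5 and 20.9 with indisulam and 23.5, 19.8 and 36.7 with DMSO. These rest on 12, 6 and 8 reads in the pladienolide B libraries, 35, 38 and 20 in the indisulam libraries and 28, 24 and 36 in the DMSO libraries. All 3 pladienolide B values lay below the others, and the indisulam and DMSO values overlapped. The means were 9.98 ± 2.16, 30.5 ± 8.92 and 26.6 ± 8.88 in the order pladienolide B, indisulam and DMSO. The ratio was 0.374 for pladienolide B over DMSO (log2 difference -1.31 ± 0.40) and 1.14 for indisulam over DMSO (log2 difference 0.19 ± 0.40). With a mean of 22.4 over the 9 libraries, CEBPA thus moved opposite to CEBPB and CEBPD between pladienolide B and DMSO, at a level where a few reads shift the ratio. CEBPA-DT, the transcript that starts beside CEBPA in the other direction, averaged 28.3 with pladienolide B, 36.1 with indisulam and 22.8 with DMSO.

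GADD45B, a GADD45 gene known to respond to TGF-beta and NF-kB signals, is feature GSHG0021008 (hg38 chr19:2476127-2478259) with 4 exons in its longest GENCODE 29 transcript. It had 30229, 26869.8 and 25873 normalised counts with pladienolide B, 6181, 6219.7 and 6389.75 with indisulam and 4179.7, 4719 and 4331 with DMSO. The groups did not overlap, and the lowest pladienolide B library stood far above the highest of the other 6. GADD45B averaged 27657 ± 2282 with pladienolide B, 6263 ± 111 with indisulam and 4410.2 ± 278 with DMSO (SD, n = 3 each). Pladienolide B over DMSO gave a ratio of 6.27 (log2 difference 2.65 ± 0.07), the widest of the 5 genes, and indisulam over DMSO gave 1.42 (log2 difference 0.51 ± 0.07).

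GADD45G, which in other cells is known as a growth-restraining and differentiation-linked member, is feature GSHG0043504 (hg38 chr9:89605012-89606555), also with 4 exons. Its values were 102, 109.6 and 93.9 with pladienolide B, 75.1, 67.9 and 77.3 with indisulam and 53.6, 48.7 and 75.4 with DMSO. The pladienolide B values lay above both other groups, whereas indisulam and DMSO overlapped because DMSO replicate 3 reached the indisulam range. The means were 102 ± 7.89, 73.5 ± 4.91 and 59.2 ± 14.2 in the order pladienolide B, indisulam and DMSO. The ratio was 1.72 for pladienolide B over DMSO (log2 difference 0.80 ± 0.22) and 1.24 for indisulam over DMSO (log2 difference 0.33 ± 0.22). The SE of GADD45G and CEBPA exceeded those of the other 3 genes, which have far more reads.

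**Figure D1:**
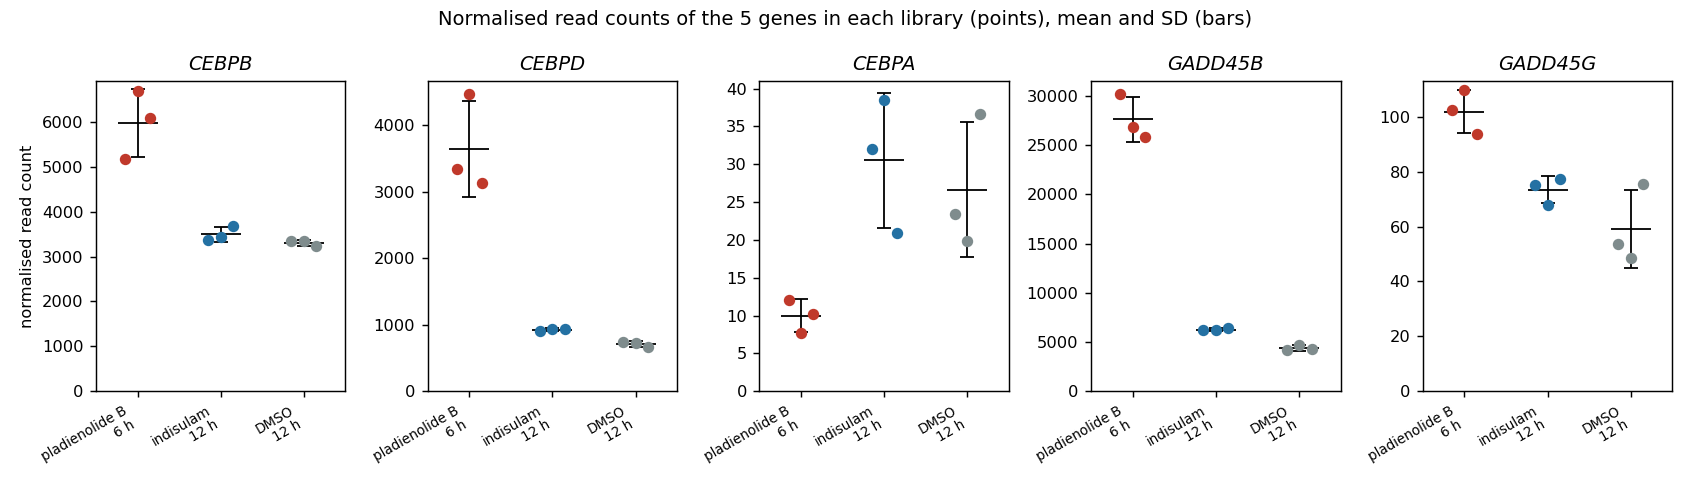
Normalised read counts (vertical axes, each starting at 0) of CEBPB, CEBPD, CEBPA, GADD45B and GADD45G in the 9 libraries, grouped as pladienolide B, indisulam and DMSO; points are libraries, long bars the mean and whiskers the SD. GADD45B lies between 25873 and 30229 with pladienolide B and between 4179.7 and 6389.75 in the other groups, and CEBPA is the one gene of the 5 with its lowest values under pladienolide B.

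Between pladienolide B and DMSO, 4 of the 5 genes had all 3 drug values above all 3 DMSO values, where 35.5% of all genes tested did, and CEBPA had all 3 below, as did 36.3% of all genes. Between indisulam and DMSO, CEBPB, CEBPD and GADD45B lay above without overlap, against 27.4% of all genes. Set side by side, pladienolide B over indisulam gave ratios of 4.42 for GADD45B, 3.94 for CEBPD, 1.71 for CEBPB, 1.39 for GADD45G and 0.327 for CEBPA. With each library scaled to the same total, the log2 difference between the drugs went from 0.47 to 0.05 ± 0.22 for GADD45G. It went from 0.77 to 0.35 for CEBPB, and became 1.72 for GADD45B, 1.54 for CEBPD and -1.88 for CEBPA. The 4 genes with ratios over 1 lay above without overlap, where 35.6% of all genes did, and CEBPA lay below, where 36.2% did. Since the choice of the genes used these contrasts, nothing is read from these counts. Ranked from the highest difference of 16846 genes between pladienolide B and DMSO, GADD45B was at 335, CEBPD at 437, CEBPB at 2350.0, GADD45G at 2683 and CEBPA at 14701. In the ranking for indisulam against DMSO, GADD45B was at 1796, CEBPD at 2543, GADD45G at 3125, CEBPA at 5135 and CEBPB at 7629. Both rankings use the same DMSO libraries.

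Levels of different genes were compared per kilobase of the longest GENCODE 29 transcript, as group means. With pladienolide B the order was GADD45B at 20144 normalised counts per kilobase, CEBPB at 3061, CEBPD at 1676, GADD45G at 95.7 and CEBPA at 3.79. The same order held with indisulam, at 4562, 1788, 425, 69.0 and 11.6, and with DMSO, at 3212, 1691, 324, 55.6 and 10.1. With these lengths, neighbours in this order differed by more than their SDs in all 3 groups. The CEBPD feature spans 1508 bases and its longest transcript has 2178, whereas for CEBPB these are 2108 and 1956. By feature span, CEBPD would stand higher per kilobase and CEBPB lower. The gap between CEBPB and CEBPD, including its size beside their SDs with pladienolide B, thus depends on the length used. What moved was the spacing. Within a library, the count ratio of CEBPD to CEBPB was 0.610 ± 0.084 with pladienolide B, 0.265 ± 0.012 with indisulam and 0.213 ± 0.008 with DMSO, and these ratios are not corrected for length. GADD45B over CEBPB was 4.70 ± 0.986, 1.79 ± 0.056 and 1.33 ± 0.080 in the same order. GADD45G over GADD45B was lower with pladienolide B, at 0.0037, than with indisulam at 0.0117 or DMSO at 0.0135. These ratios share a library's scaling, so they do not depend on how the libraries were normalised.

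The relatives outside the 5 genes were tested. CEBPG, a short C/EBP protein that lacks a strong activation domain and pairs with other bZIP proteins, fell with pladienolide B to 1161 ± 132, against 4311 ± 148 with DMSO (log2 difference -1.90 ± 0.08, limma adjusted p = 2.25e-10). With indisulam it averaged 3858 ± 119 and was not called (log2 difference -0.16, adjusted p = 0.160). The within-library ratio of CEBPB to CEBPG was 5.17 ± 0.544 with pladienolide B, 0.907 ± 0.041 with indisulam and 0.767 ± 0.018 with DMSO. CEBPZ, a nucleolar protein named for CCAAT binding but without a leucine zipper of the family, fell to 2497 ± 809 with pladienolide B, against 4880.4 ± 331 with DMSO (log2 difference -1.01 ± 0.16, adjusted p = 6.59e-05). DDIT3, the stress-induced C/EBP partner CHOP, averaged 97.7 ± 11.3 with pladienolide B, 95.5 ± 8.95 with indisulam and 94.7 ± 10.1 with DMSO, and was called in neither comparison (adjusted p = 0.848 and 0.971). Its locus overlaps a feature with a mean of 10639.6 normalised counts, so the DDIT3 counts are uncertain. CEBPE reached at most 5.03 in any library and was not tested.

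GADD45A, the p53-responsive member of the family, rose with both drugs. It averaged 29527 ± 713 with pladienolide B and 12024 ± 655 with indisulam, against 8084 ± 430 with DMSO. The log2 difference from DMSO was 1.87 ± 0.06 with pladienolide B (limma adjusted p = 2.64e-11) and 0.57 ± 0.06 with indisulam (adjusted p = 1.88e-05), and pladienolide B exceeded indisulam by 1.30 (adjusted p = 3.92e-10). GADD45B stood at 0.936 ± 0.060 of the GADD45A count with pladienolide B, 0.522 ± 0.019 with indisulam and 0.546 ± 0.040 with DMSO.

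**Figure D2:**
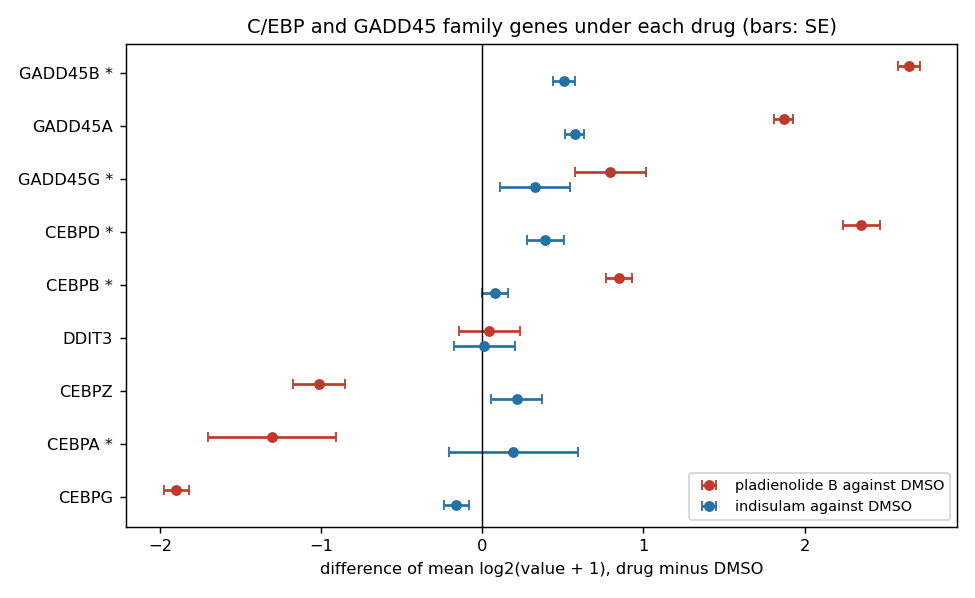
Difference of the mean log2(value + 1) between each drug and DMSO (horizontal axis) for the C/EBP and GADD45 families, with bars of 1 SE; asterisks mark the 5 genes chosen by name. GADD45B, CEBPD and GADD45A lie furthest right under pladienolide B, at 2.65, 2.35 and 1.87, while CEBPG lies furthest left at -1.90.

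What the 5 genes share by structure was their small number of exons. CEBPA, CEBPB and CEBPD have 1 exon and GADD45B and GADD45G have 4. Among other coding genes with 1 exon, the median log2 difference between pladienolide B and DMSO was 0.78, with 65.9% of 217 genes called higher and 9.68% lower. It was 0.18 for 1896 genes with 2 to 4 exons, 0.05 for 4721 genes with 5 to 10 exons and -0.28 for 5442 genes with over 10 exons. CEBPB, at 0.85, stood near the median of its class, while CEBPD stood above and CEBPA below the middle 50% of it. GADD45B and GADD45G, at 2.65 and 0.80, both stood above the upper quartile of genes with 2 to 4 exons. The class medians for indisulam against DMSO were 0.22, 0.11, 0.06 and -0.05, from the fewest exons to the most. Relatives outside the 5 genes also have few exons in their longest transcript and moved in both directions under pladienolide B. GADD45A, with 4, differed from DMSO by 1.87 and CEBPG, with 2, by -1.90. Whether exon number has a part in these differences was not tested.

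**Figure D3:**
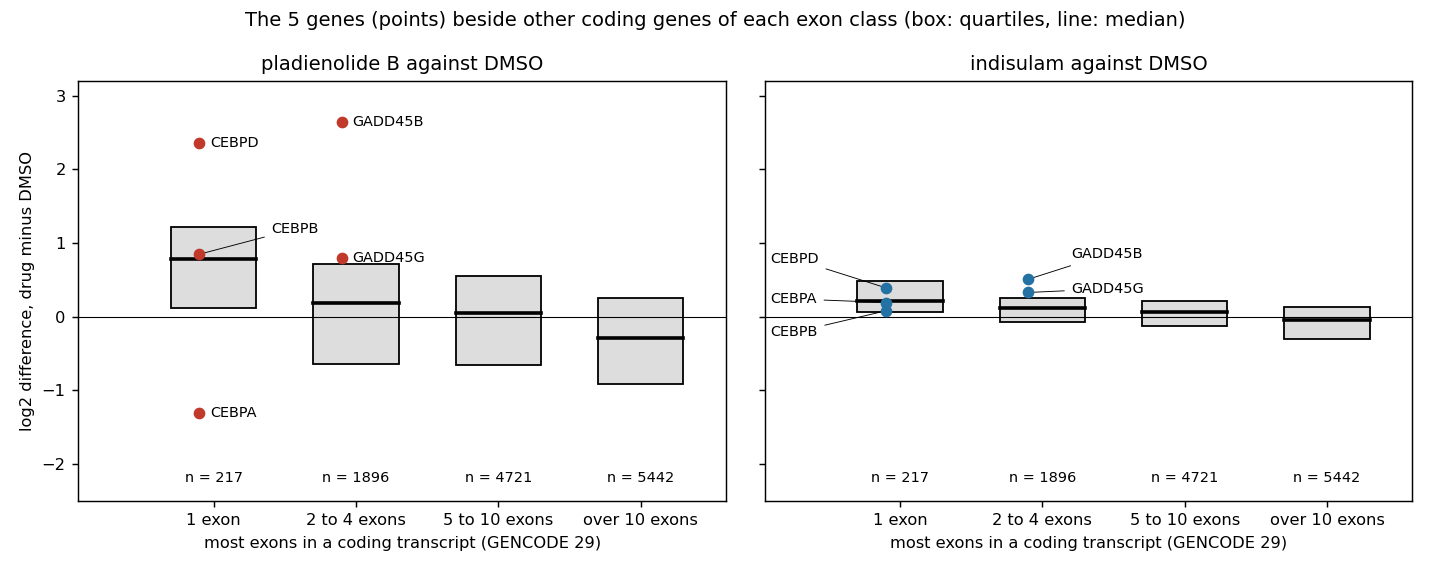
Log2 difference between each drug and DMSO (vertical axis) for the 5 genes, drawn as points over their exon class, beside all other coding genes tested in 4 classes of exon number (box, quartiles; line, median). The class medians under pladienolide B run from 0.78 for 1 exon to -0.28 for over 10 exons, and GADD45B, GADD45G and CEBPD lie above their boxes while CEBPA lies below.

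The genes whose profile over the 9 libraries was most like that of each gene were sought among 11526 genes with a symbol and a mean of at least 100, by the root mean square difference of log2 values relative to DMSO. CEBPA and GADD45G, with means of 22.4 and 78.2, were too low for this. Nearest to CEBPB were RIOX1 at 0.0544, EI24 at 0.0549 and POMK at 0.0599. Nearest to CEBPD were SPRY2 at 0.127, CITED2 at 0.167 and MYC at 0.168. SPRY2 is a feedback inhibitor of receptor tyrosine kinase signals, CITED2 a CBP/p300-binding coregulator and MYC a short-lived transcription factor. The profile of GADD45B was nearest to those of CCN1 at 0.129, MYC at 0.154 and EDN1 at 0.163. CCN1 encodes a secreted matrix protein and EDN1 the peptide endothelin. Their log2 differences between pladienolide B and DMSO were 2.48 for CCN1, 2.53 for MYC and 2.56 for EDN1, beside 2.65 for GADD45B. CEBPB itself differed less from DMSO than CEBPD and GADD45B did, which leaves less to differ in a profile like it.

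On the C/EBP side of the pathway, counts are given for lists of other genes, each with the median log2 difference, which over all genes tested was -0.01 for pladienolide B against DMSO. The background is the 34.3% of genes called higher and 35.5% called lower. With each library scaled to the same total, 2718 genes were called higher and 9122 lower, in place of 5776 and 5976. Of 20 bZIP partners, 6 rose and 6 fell with pladienolide B (median 0.05), and 3 rose and 11 fell under that scaling. FOSL1, an AP-1 subunit, rose by a log2 difference of 1.46 ± 0.06 (limma adjusted p = 9.81e-11) and FOS by 1.36 ± 0.37 (adjusted p = 0.00451), though FOS overlaps TTLL5, ERG28 and JDP2, all with higher counts. ATF4, the effector of the integrated stress response and a C/EBP partner, fell (-1.13 ± 0.08, adjusted p = 2.15e-08), as did JUND (-0.85 ± 0.10, adjusted p = 4.02e-06). Of 19 regulators of C/EBP proteins, 4 rose and 11 fell (median -0.49), and 4 rose and 15 fell with the same total per library. TRIB1, the pseudokinase that brings C/EBP-alpha to the COP1 ligase, averaged 2907 with pladienolide B, against 833 with DMSO (1.80 ± 0.11, adjusted p = 4.63e-09), and CALR, which can bind C/EBP mRNAs, rose by 0.90 ± 0.06 (adjusted p = 1.13e-08). KMT2A, a histone methyltransferase, fell by 1.30 on the log2 scale (adjusted p = 3.98e-07) and CELF1, an RNA-binding regulator of CEBPB translation, by 1.06 (adjusted p = 1.76e-08).

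Upstream and downstream of C/EBP proteins, IL-6 and its targets were measured. Of 14 genes of the IL-6 and STAT3 route, 5 rose and 6 fell with pladienolide B (median -0.15). The cytokine IL6 itself averaged 1614 with pladienolide B, against 405 with DMSO (log2 difference 2.00 ± 0.17, limma adjusted p = 1.45e-07), while the kinase JAK2 fell (-1.17 ± 0.14, adjusted p = 5.07e-06) and so did PIAS3, an inhibitor of STAT3 (-1.24 ± 0.08, adjusted p = 8.74e-09). The PIAS3 feature, with a mean of 1188, overlaps NOTCH2NLA with a mean of 1097, so the PIAS3 counts are less certain. STAT3 fell too, to 4196 against 8282 with DMSO (-0.98 ± 0.05, limma adjusted p = 2.51e-09). This gene is named here after its value was seen. The receptor chain IL6ST rose by 0.60 ± 0.11 (adjusted p = 0.000201), a call lost when each library was scaled to the same total (0.13, adjusted p = 0.362). Of 12 C/EBP target and acute phase genes with enough counts, 7 rose and none fell (median 0.79), and 4 rose and 2 fell under that scaling. A further 10 matched genes of this list had a mean under 10 and were not tested. They were the acute phase genes HP, ORM1, ORM2, CRP, FGA and FGB, and CSF3, S100A8, S100A9 and MMP3, so the 12 are not the whole list. CXCL8, a neutrophil-attracting chemokine, averaged 2706 with pladienolide B, against 1124 with DMSO (1.33 ± 0.24, adjusted p = 0.00024), and complement C3 rose by 1.23 ± 0.24 (adjusted p = 0.00045). SAA1, an acute phase protein, averaged 5958 ± 532 with pladienolide B and 3502 ± 181 with indisulam, against 2765 ± 37.4 with DMSO, and was called with both drugs (adjusted p = 1.05e-08 and 0.0034).

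On the GADD45 side, 2 of 15 partners rose and 10 fell with pladienolide B (median -0.74), beside 34.3% and 35.5% of all genes tested. With the same total per library none rose and 13 fell, where over all genes 2718 were called higher and 9122 lower. MAP2K7, the kinase that activates JNK, averaged 498 with pladienolide B, against 2182 with DMSO (log2 difference -2.14 ± 0.09, limma adjusted p = 2.48e-10). MAPK14, the p38-alpha kinase, averaged 826 with pladienolide B, against 3031 with DMSO (-1.88 ± 0.08, adjusted p = 1.91e-10). MAP3K4, the kinase that GADD45 proteins bind, fell by 1.45 on the log2 scale (adjusted p = 3.09e-10) and is named here after its value was seen. The partners called higher, CDK1 (0.43 ± 0.06, adjusted p = 1.33e-05) and the JNK gene MAPK9 (0.35 ± 0.07, adjusted p = 0.000488), turned to -0.043 for CDK1 and -0.12 for MAPK9 with the same total per library. Of 15 known regulators of GADD45 genes, most of them inducers, 3 rose and 8 fell (median -0.39), and 2 rose and 12 fell under that scaling. ZNF350, a repressor that acts on GADD45A with BRCA1, rose by 2.01 ± 0.12 (adjusted p = 4.14e-09) and EGR1, an immediate early factor, by 1.66 ± 0.32 (adjusted p = 0.000408). SMAD3, a TGF-beta effector, averaged 452 with pladienolide B, against 2712 with DMSO (-2.58 ± 0.08, adjusted p = 3.62e-11), and the NF-kB subunit RELA fell by 1.53 (adjusted p = 7.97e-10). All 22 genes picked by the naming rule for pladienolide B were called without each library in turn.

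**Figure D4:**
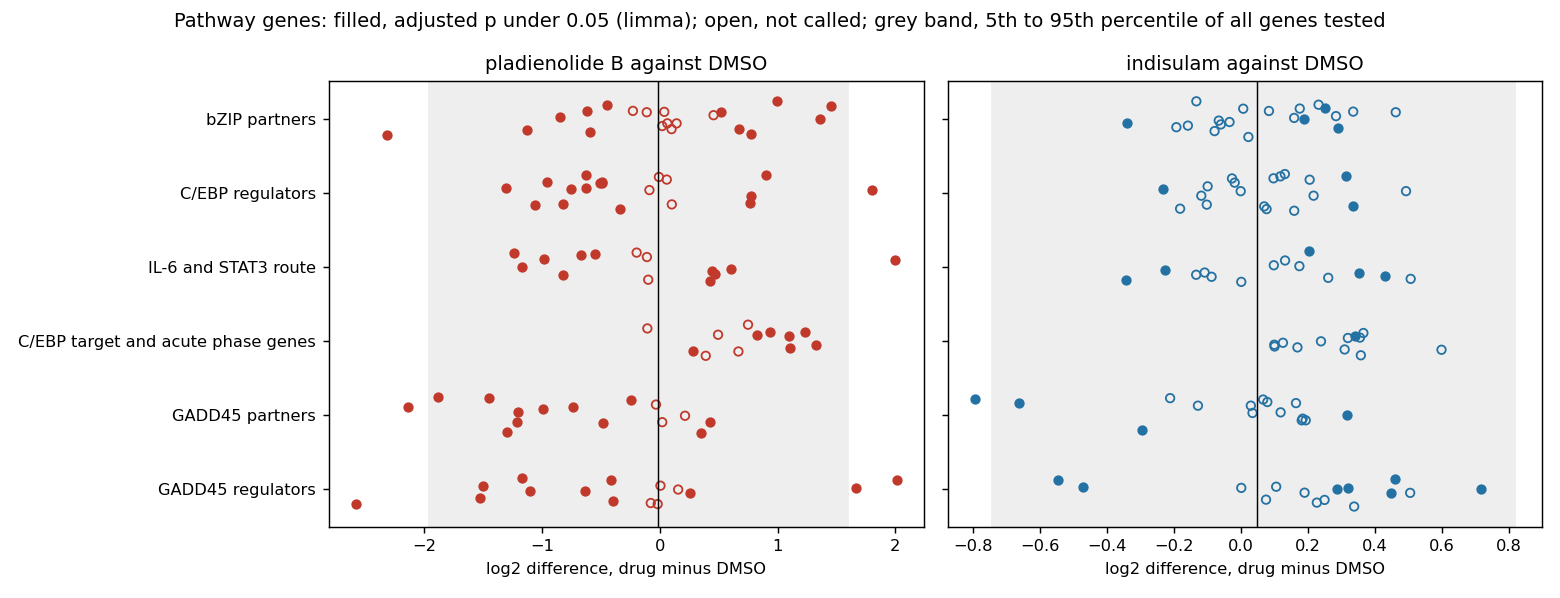
Log2 difference between each drug and DMSO (horizontal axes, which differ in range) for the tested genes of 6 pathway lists (rows); filled points had an adjusted p under 0.05, open points did not, the grey band holds the middle 90% of all genes tested, and the vertical line is their median. Under pladienolide B the C/EBP target and acute phase genes lie mostly right of 0 (median 0.79) and the GADD45 partners mostly left (median -0.74).

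With indisulam, 16 of the 100 pathway genes tested rose and 9 fell, against 14.5% and 12.4% of all genes (medians 0.13 and 0.05). The count of 16 moved to 8 without indisulam replicate 3 and to 9 without indisulam replicate 2 or without any 1 DMSO library. Calls higher over all genes fell as well, from 2437 to between 1565 and 1752 in those settings. Of 18 genes picked by the naming rule, 9 kept their call without each library in turn, and the examples that follow are from these. PCNA, the replication clamp that GADD45 proteins bind, fell by 0.79 on the log2 scale (limma adjusted p = 4.19e-05) and the repair nuclease ERCC5 by 0.66 (adjusted p = 0.00368). Among the regulators of GADD45 genes, 5 of 15 rose and 2 fell: SMAD4 rose by 0.72 ± 0.08 (adjusted p = 2.59e-05) and the receptor TGFBR1 by 0.46 ± 0.07 (adjusted p = 0.000283), whereas BRCA1 fell by 0.54 (adjusted p = 0.00213) and TGFB1 by 0.47 (adjusted p = 0.000531). The kinase TYK2 fell by 0.34 (adjusted p = 0.00221) and the bZIP gene CREM by 0.34 (adjusted p = 0.00411). Of 12 C/EBP target genes tested, SAA1 was called. CXCL8 was not (log2 difference 0.60, adjusted p = 0.0864), though it was called without DMSO replicate 2 (0.85, adjusted p = 0.0237) or without indisulam replicate 1 (0.86, adjusted p = 0.0235). Of the 3 C/EBP relatives tested none was called. Between the drugs directly, 30 of the 100 genes were called higher and 46 lower with pladienolide B than with indisulam, beside 34.7% and 35.6% of all genes. With the same total per library the 30 became 16, while the calls higher over all genes went from 5842 to 3004.

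The 5 genes were also described under other scalings and tools. When each library was scaled to the same total, the median of all genes moved by -0.47 for pladienolide B against DMSO, and the differences became 2.17 for GADD45B, 1.88 for CEBPD, 0.38 for CEBPB, 0.33 for GADD45G and -1.74 for CEBPA. Each of the 5 values thus moved by about as much as the median gene. In the 18 other settings tried (17 for CEBPA), GADD45B was at least 2.57, CEBPD ranged from 2.20 to 2.45, CEBPB from 0.76 to 0.95, GADD45G from 0.67 to 0.98 and CEBPA from -1.49 to -0.92 (the last with a pseudocount of 8). For indisulam against DMSO, GADD45B ranged from 0.46 to 0.56 and CEBPD from 0.34 to 0.42 in those settings, while CEBPB lay between 0.04 and 0.11. With indisulam CEBPA ranged from 0.01 (without indisulam replicate 2 or DMSO replicate 2) to 0.44 (without DMSO replicate 3), and GADD45G from 0.20 (without DMSO replicate 2) to 0.51 (without DMSO replicate 3), so 1 library decides how far these values lie from 0. In all these ranges, the filters, 2 groups only, the replicate block and leaving out a library of the group not compared cannot move a value.

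**Figure D5:**
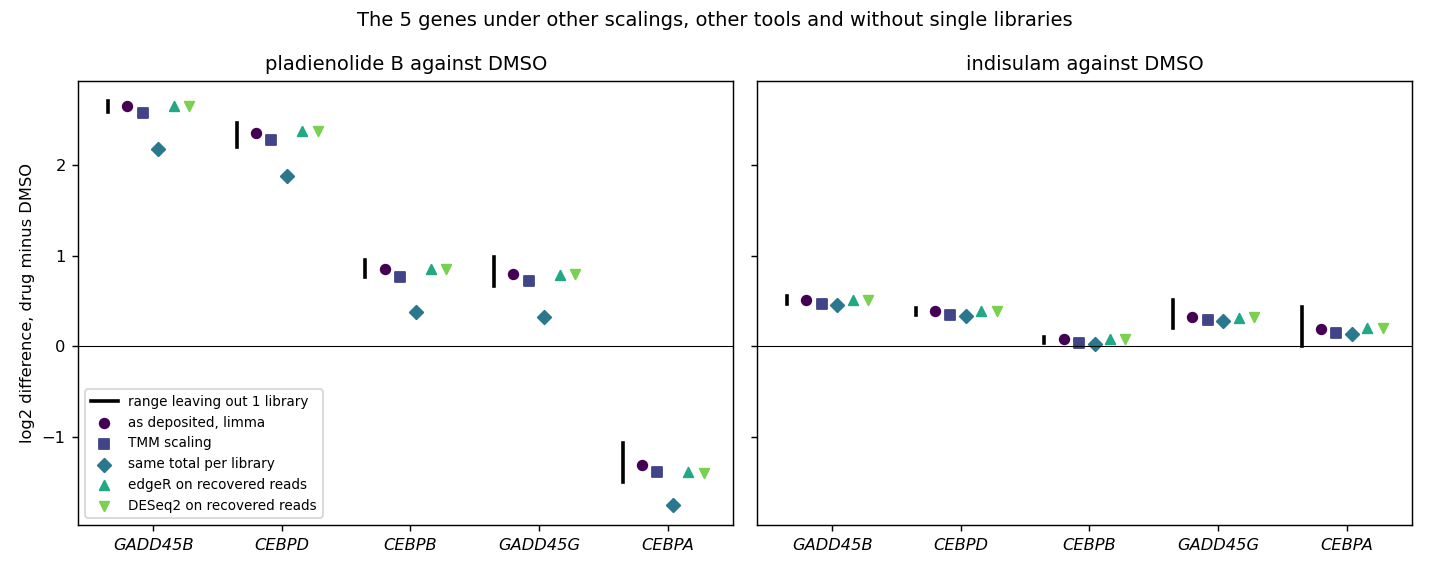
Log2 difference between each drug and DMSO (vertical axis) for the 5 genes under 3 scalings and 3 tools (symbols), with the range when 1 library is left out (black lines). Scaling every library to the same total lowers all 5 values under pladienolide B, to 2.17 for GADD45B and 0.33 for GADD45G, and no gene changes direction in either panel.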

How the data were processed

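RNA-seq of MDA-MB-231 cells gave 3 libraries each for pladienolide B, indisulam and DMSO. Silica columns with DNase and a stranded mRNA kit were used, per the labels' protocols. Per the submitters' processing notes, reads were handled with STAR 2.7.5a on hg38, together with SAMtools, Picard, FastQC and DESeq2. How reads were counted, strand included, is not given in the sources used here. Values were deposited as 1 signal per feature and library. Per the table's name, these are counts that the authors normalised with DESeq2. Divided by what 1 read is worth in its library, 100% of values came out whole (tolerance 0.01), so reads could be recovered, and limits drawn from them cover counting error only. Columns were matched to libraries by name.

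The fit used limma 3.58.1 in R 4.3.3 on log2(value + 1), a scale that understates low genes. It had 1 mean per group, all 9 libraries, a variance trend, two-sided tests and Benjamini-Hochberg adjustment at 0.05 over the 16846 genes with a mean of at least 10, and was tested on simulated data. The 5 genes and all lists were chosen with earlier results of these data known, so no list is independent evidence of its direction. Of 143 listed genes, 141 were matched (8 pathway and 3 marker lists). Named were all genes of lists of up to 4 and otherwise, per drug, up to 2 called genes per direction with the largest difference and a mean of at least 100, and 1 gene that the rule names is not reported here. Whether a group's libraries are separate cultures is not stated, and the p-values then reflect only library-to-library spread. Libraries of a group differed by a chi-square per gene of at least 8.63, so none was another library sequenced again. This does not show that they came from separate cultures. Exons came from GENCODE 29, promoters from RefSeq. Alternatives were TMM scaling (edgeR 4.0.16), the same total per library, other pseudocounts and filters, 2 groups only, a replicate block, each library left out, and edgeR and DESeq2 1.42.0 on recovered reads.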

Additional observations from a re-analysis of the deposited data

How the results depend on the processing

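The 5 genes kept their direction against DMSO in all 19 alternatives tried (18 for CEBPA, which a filter at a mean of 50 removes). Several of these could not change it: the filters, 2 groups only, the replicate block and leaving out a library of the group not compared. By construction, they leave a difference of group means as it was. With the same total per library, pladienolide B against DMSO gave 2.17 for GADD45B, 1.88 for CEBPD, 0.38 for CEBPB, 0.33 for GADD45G and -1.74 for CEBPA, with 2718 genes called higher and 9122 lower (main 5776 and 5976), that is 23.0% of calls higher in place of 49.1%, and 16 pathway genes higher in place of 29. Pladienolide B against indisulam then gave 3004 genes higher and 16 pathway genes higher (main 5842 and 30), and 26.1% of calls higher in place of 49.3%. For indisulam against DMSO the share of calls that were higher was 53.8%, 42.8% under TMM scaling and 40.2% with the same total. Pathway genes called higher with indisulam, 16 in the main result, numbered 9 under TMM scaling, 9 with the same total, 34 with 2 groups only and 34 with the replicate block, and ranged from 8 to 23 when 1 library was left out. All genes called higher with indisulam ranged from 1565 (without indisulam replicate 3) to 2982 when 1 library was left out. They numbered 2437 in the main result, 1831 under TMM scaling, 1713 with the same total and 3536 with 2 groups only. The same total per library reversed these named genes for pladienolide B against DMSO: ATF2 (-0.41), CDK1 (-0.043), CREM (-0.45), MAPK9 (-0.12), OSMR (-0.0427), PCNA (-0.45), RPS6KA3 (-0.41) and TGFB1 (-0.32). For pladienolide B against indisulam it reversed CDK1 (-0.11), CREM (-0.0559), LIF (-0.30), OSMR (-0.34), RPS6KA3 (-0.13) and TYK2 (-0.17). By construction that scaling shifts every gene by the ratio of library totals. With indisulam, ATF2, FOSL2, GSK3B, JAK2, LIF, MAPK8, OSMR, RPS6KA3 and TRIB1 lost their call when at least 1 library was left out.

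Replicate numbers were not taken to pair the libraries, since the labels name nothing shared and not every correlation of deviations passed 0.1. Over 9 pairs with the same number it was 0.00266 to 0.128, with 3 over 0.1, against -0.124 to 0.045 for other pairs, and in 16 of 18 checks a library correlated best with its own number, a hint from the data and not the design. With the replicate block, 3548 genes were called higher and 2739 lower with indisulam (main 2437 and 2095), and CXCL8 was called (0.60, adjusted p = 0.000735). CEBPA rests on 6 to 38 reads a library, so counting error limits its ratio.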
